A study of Zea mays with 12 samples.

Results

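The endosperm of the maize hybrid Mo17xB73 was compared with the endosperm of Mo17, the inbred line taken to be its mother. The comparison rests on 6 of the 12 arrays of the series, chosen by genotype in the sample titles: 3 arrays of Mo17xB73 and 3 of Mo17. The 3 arrays of a genotype stand for 3 crossing dates, and all genotypes of a date were crossed within 30 minutes of each other, so arrays of the same date are a pair. The other 6 arrays, 3 of the inbred B73 and 3 of the reciprocal hybrid B73xMo17, entered the same fit and give the second parent and the opposite cross. All plants were field-grown, no genotype carried a transgene or a treatment, and tissue was taken 13 days after pollination. Each array held pooled RNA from 6 ears. The growth protocol gives 6 endosperms per ear, 36 in a pool, and the series description gives 5 per ear. The female parent is taken to be the first written, as is usual in maize genetics, since the labels do not state it. B73 and Mo17 are widely used inbred lines of field maize.

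Endosperm is the storage tissue of the cereal kernel and arises from its own fertilization, in which the central cell contributes 2 genome copies and a sperm 1. Mo17 endosperm therefore holds 3 Mo17 copies, and Mo17xB73 endosperm holds 2 Mo17 copies and 1 B73 copy. If each copy were used alike in both, a transcript made from Mo17 copies only would stand at 0.667 of its Mo17 level, and a transcript made from the B73 copy only would stand at 0.333 of its B73 level. Maize endosperm is also known for imprinted genes, which are used mostly from the copy of one parent, and for the zeins, storage proteins that fill the starchy cells.

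Messenger RNA was read on one-colour Affymetrix arrays as MAS5 signal, a linear brightness with 1 value per probe set. Arrays were scaled to a common median of the brighter probe sets only, those with a mean above the pooled 40th percentile. Signal under 15.1 was raised to that floor, and 10670 probe sets with a mean above 73.2 were tested. A level below is the geometric mean of 3 arrays on this scale, a difference is log2 of Mo17xB73 over Mo17 with its SE (n = 3 arrays each), and an adjusted p comes from limma with crossing date as a block and Benjamini-Hochberg adjustment over all tested probe sets. Probe sets with an adjusted p under 0.05 were called. Array correlations ran from 0.982 to 0.989 within Mo17xB73, from 0.985 to 0.991 within Mo17 and from 0.943 to 0.962 between them. The inbreds differed from each other at 63.2% of probe sets (31.9% higher and 31.3% lower in B73), and Mo17xB73 differed from B73 at 51.1% (25.1% higher and 26% lower). Only 805 tested probe sets, for 657 genes, had a usable gene name, so most of the counts below concern probe sets without one. The gamma zein gz27, a marker of starchy endosperm, was bright in both genotypes, at 10132 in Mo17xB73 and 9350 in Mo17. Not all such markers were: the zein genes dzs18 and z1C1_12 were at 18.2 and 16.96 in Mo17. The embryo globulin gene glb1 was also read, at 1066 in Mo17xB73 and 1254 in Mo17. Differences in probe sequence between B73 and Mo17 were not separated from differences in RNA level, which touches every value set between the lines.

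Of the 10670 probe sets, 2020 (18.9%) passed the threshold in Mo17xB73 against Mo17: 1216 higher (11.4%) and 804 lower (7.54%) in Mo17xB73. The sizes in the 2 directions were unlike. Among the higher, 414 rose by at least 2-fold and 181 by at least 4-fold, and the median difference was 0.686. Among the lower, 11 fell by at least 2-fold and none by 4-fold, the median difference was -0.383, and 647 (80.5%) lay within 1.5-fold of Mo17. At least 2-fold differences made up 3.98% of probe sets tested. The 3 within-date differences had the same sign for 1214 of the 1216 higher and 801 of the 804 lower probe sets. The calls were made from these same differences, which largely fixes the counts. Arrays of Mo17xB73 lay entirely above those of Mo17 for 1046 of the called higher probe sets. They lay entirely below for 662 of the called lower ones. Calls rest on the same arrays, so selection by the calls largely sets these 2 counts. Over all tested probe sets, called or not, 15.1% lay entirely above and 13.6% entirely below. The split of calls depended on the scaling: with the common median taken over all probe sets, 37.5% of calls were higher in place of 60.2%, and the median difference of all probe sets moved to -0.101, against -0.012 here. Lower calls were also less stable than higher ones. They numbered 437, 630 and 386 without Mo17xB73 replicates 1, 2 and 3, and 520, 481 and 439 without Mo17 replicates 1, 2 and 3. Higher calls in the same fits ran from 892 to 1099. Total calls were 1278 without Mo17xB73 replicate 3. Leaving out a whole date gave 1149 calls (331 lower) without date 1, 1510 (495 lower) without date 2 and 947 (208 lower) without date 3. Without the date block, 841 higher (7.88%) and 338 lower (3.17%) were called, and all 1179 of these were also called with it.

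**Figure D1:**
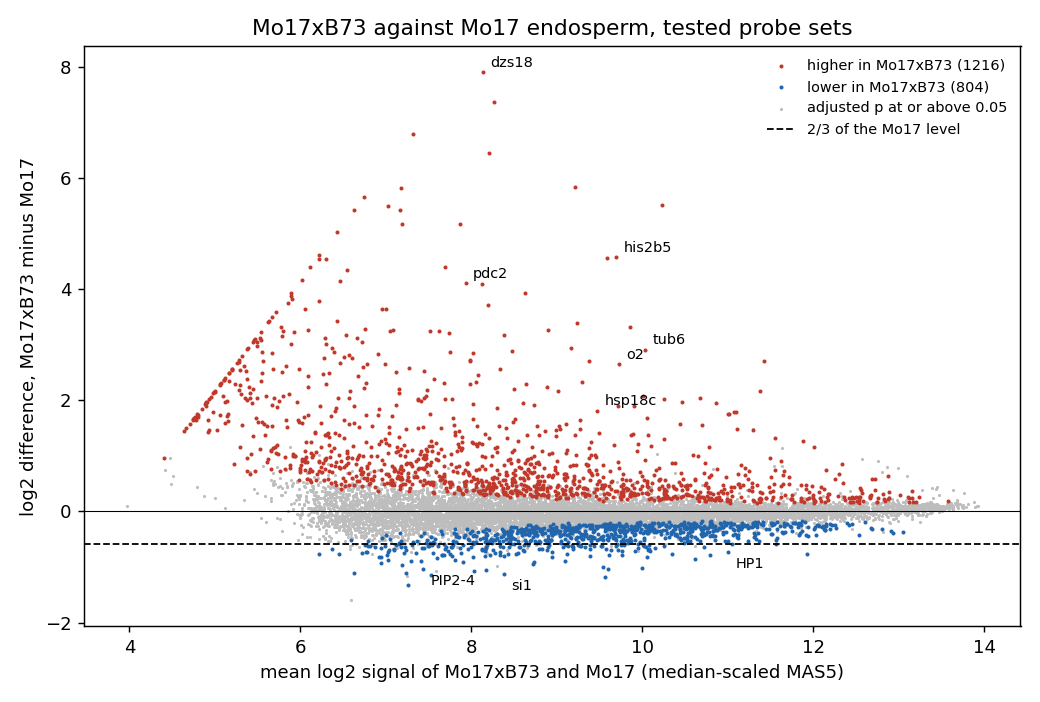
Log2 difference of Mo17xB73 minus Mo17 (vertical axis) against the mean log2 signal of both genotypes (horizontal axis) for the 10670 tested probe sets, in red where called higher (1216), blue where called lower (804) and grey otherwise. The dashed line marks 0.667 of the Mo17 level. Red points reach 7.90 (dzs18) while no blue point lies below -1.33.

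No probe set was called below 0.667 of its Mo17 level, the level that 2 of 3 copies would give, and 21 were below it at an unadjusted p under 0.05 (limma, one-sided). No probe set was called lower in Mo17xB73 than in both inbreds, and 266 were at an unadjusted p under 0.05. With the common median taken over all probe sets, 6 were called lower than both inbreds. The largest falls among the called lower were in probe sets without a gene name: Zm.3648.1.A1_at read 105.1, 105.0 and 82.0 in Mo17xB73, against 237.1, 233.7 and 260.8 in Mo17, a difference of -1.33 ± 0.22 (adjusted p 0.00109). Its B73 level was 18.7. All 3 hybrid arrays were below all 3 maternal arrays. The next, Zm.16354.1.S1_at, had levels of 504 and 1146 in Mo17xB73 and Mo17 (-1.19 ± 0.29, adjusted p 0.0137), but its arrays overlapped and it missed the threshold without the date block (adjusted p 0.117).

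For probe sets read in 1 inbred only, the hybrid's level can be set beside the share of genome copies from that parent. These probe sets were chosen from the inbred arrays without the hybrids. In 23 probe sets, all 3 Mo17 arrays were at the floor and all 3 B73 arrays above 200. Their median Mo17xB73 level was 0.316 of the B73 level (quartiles 0.275 and 0.331), with date medians of 0.31, 0.3 and 0.297 (SD 0.0068). In 19 other probe sets the B73 arrays were at the floor and the Mo17 arrays above 200: the median Mo17xB73 level was 0.684 of the Mo17 level (quartiles 0.623 and 0.749; date medians 0.68, 0.684 and 0.683, SD 0.002). The medians lay near 0.333 and 0.667, the shares of genome copies. In B73xMo17, with the opposite dosage, the same sets had medians of 0.676 of B73 and 0.34 of Mo17. Single probe sets of the second set ran from 0.476 to 1.14 of Mo17 in Mo17xB73 and from 0.143 to 1.65 in B73xMo17. The highest value in each hybrid was that of Zm.161.2.S1_x_at. These are descriptions: the parents were chosen for their own levels, and the scaling moved the values (0.293 to 0.323 for the first set, 0.606 to 0.684 for the second). All 23 of the first set were called higher and 13 of the 19 lower, counts that the choice of sets largely fixes. None of these probe sets had a gene name.

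**Figure D2:**
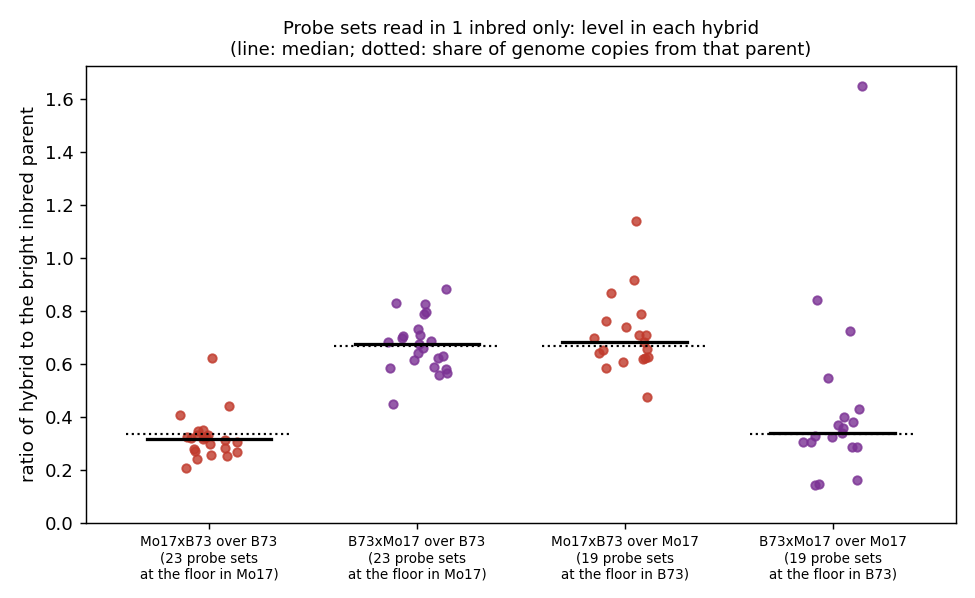
Ratio of each hybrid's level to that of its bright inbred parent (vertical axis) for 23 probe sets at the floor in Mo17 and 19 at the floor in B73, 1 point per probe set. Solid lines are medians (0.316, 0.676, 0.684 and 0.34 from left to right) and dotted lines mark the share of genome copies from that parent, 0.333 or 0.667.

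Individual members of the first set show the spread. Zm.9832.1.A1_at read 509, 484 and 490 in Mo17xB73, where Mo17 was at the floor on every array, and 1814, 1838 and 1827 in B73, so the hybrid stood at 0.271 of B73 with little spread between dates. Zm.17662.1.S1_at read 701, 782 and 822 in Mo17xB73, against the floor in Mo17, and stood at 0.441 of B73. Zm.2207.1.A1_at departed most from the rest: it had 512, 553 and 971 in Mo17xB73, which is 0.623 of B73, and B73xMo17, with 2 B73 copies, stood at 0.450 of B73. In all, 51 tested probe sets were at the floor on all 3 Mo17 arrays. Of these, 50 were called higher in Mo17xB73, and as they passed the filter only through the other genotypes, that count reflects how they entered. None of the 51 was at the floor on all Mo17xB73 arrays.

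The named gene with the largest gain was a zein. dzs18, a sulfur-rich delta zein, read 4762, 3237 and 5343 in Mo17xB73, against 15.1, 26.3 and 15.1 in Mo17, where 2 of the 3 arrays were at the floor. The difference was 7.90 ± 0.22 (adjusted p 3.38e-10), at least 239-fold. B73 was at 16987 and B73xMo17 at 18153, and Mo17xB73 stood at 0.256 ± 0.067 of B73 (SD over 3 dates). All 4 probe sets of dzs18 were called higher, with differences between 1.54 and 7.90.

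Of the 8 tested genes of the zein list, 5 were called higher (62.5%) and none lower. Over all tested probe sets, 11.4% were higher and 7.54% lower. By the brightest probe set of each gene, all 8 had differences above zero, with a median of 1.49 against -0.012 for all tested probe sets. The 3 tested probe sets of gz27 ran from -0.25 to 0.12, and none was called. At an unadjusted p under 0.05, 6 were higher and none lower in limma. Zein genes are a family of near-identical copies, and probe sets of alpha zeins may read several of them. gz50, a gamma zein, read 6017, 2781 and 6462 in Mo17xB73, against 2626, 952 and 2791 in Mo17. Its difference was 1.32 ± 0.26 (adjusted p 0.00396): date 2 was low in both genotypes, so the arrays overlapped while each date showed a gain. The alpha zeins z1C1_12 (2.30 ± 0.38, adjusted p 0.00123), z1D_2 (1.96 ± 0.54, adjusted p 0.0254) and z1C2 (1.66 ± 0.47, adjusted p 0.0283) were also called higher. z1C1_12 is dim in Mo17 (16.96, with 1 array at the floor). Those that missed the threshold were z1C1_20 (1.14 ± 0.41, adjusted p 0.0796), z1C1_4 (0.71 ± 0.36, adjusted p 0.198) and the gamma zein gz27 at 0.12 ± 0.08 (adjusted p 0.388). Without the date block 3 of the 8 were called, and z1D_2 and z1C2 were not (adjusted p 0.146 and 0.223). In these bulk samples, more cells of a type and more RNA per cell cannot be told apart.

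Zein genes are switched on by a small set of transcription factors. The bZIP factor o2 (opaque2) read 1836, 1837 and 2827 in Mo17xB73, against 328, 347 and 336 in Mo17, a difference of 2.65 ± 0.14 (adjusted p 7.50e-08). Levels were 4625 in B73 and 3706 in B73xMo17, and Mo17xB73 stood at 0.458 ± 0.029 of B73. A second probe set of o2, Zm.14987.1.S1_s_at, disagreed: it read 1676 in Mo17xB73 and 1459 in Mo17 (0.20 ± 0.14, adjusted p 0.36). ohp1, whose product pairs with opaque2, read 541, 558 and 562 in Mo17xB73, against 300, 302 and 273 in Mo17 (0.93 ± 0.08, adjusted p 4.60e-06). PBF, the prolamin-box binding factor, had 3714 and 3359 (0.14 ± 0.06, adjusted p 0.144). Nkd1, a regulator of aleurone and starchy cells, had 5460 in Mo17xB73 and 5368 in Mo17, and ohp2 had 502 and 498. Of 5 regulators, 2 were called higher (40%) and none lower, against 11.4% higher and 7.54% lower over all tested probe sets. None was lower at an unadjusted p under 0.05 in limma either.

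Other large gains were found in named genes of several kinds. The histone H2B gene his2b5 read 3230, 4066 and 5067 in Mo17xB73, against 84.8, 210 and 276 in Mo17 (4.57 ± 0.20, adjusted p 9.65e-09), and stood at 0.533 ± 0.052 of its B73 level. pdc2, for pyruvate decarboxylase of the fermentation pathway, read 1037, 909 and 1114 in Mo17xB73, against 65.6, 61.7 and 50.7 in Mo17 (4.11 ± 0.11, adjusted p 2.29e-10). Other probe sets of pdc2 did not follow. Zm.14518.1.S1_at read 1301 in Mo17xB73 and 1814 in Mo17, with 22.4 in B73 (-0.48 ± 0.15, adjusted p 0.0511), and Zm.14518.1.S1_s_at read 1232 and 1266 (-0.04 ± 0.07, adjusted p 0.726).

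tub6, a beta tubulin, also had probe sets with unlike values: 3 of its 4 were called higher and none lower. The one with the largest difference read 2578, 3266 and 2841 in Mo17xB73, against 367, 495 and 308 in Mo17 (2.91 ± 0.10, adjusted p 2.23e-09). Another, Zm.7750.2.S1_x_at, gave 1.00 ± 0.08, Zm.7750.2.S1_a_at gave 0.33 ± 0.07, and Zm.7750.1.S1_at, at 2427 in Mo17xB73 and 2950 in Mo17, gave -0.28 ± 0.11 (adjusted p 0.102). Across the array, 104 named genes had several tested probe sets. Of the 28 with a call, 8 had all probe sets called the same way, 19 had some called and none the other way, and 1 (expA4) was called both ways.

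The auxin-binding protein gene abp4 read 515, 615 and 708 in Mo17xB73, against 69.0, 62.8 and 61.1 in Mo17 (3.24 ± 0.12, adjusted p 3.84e-09), and its ratio to B73 of 0.328 ± 0.022 was close to the share of 1 copy in 3. The plasma membrane aquaporin gene pip2-5 read 190, 177 and 190 in Mo17xB73, against 27.0, 16.2 and 18.1 in Mo17 (3.22 ± 0.18), and stood at 0.720 ± 0.110 of B73. HMT-2, a homocysteine methyltransferase gene, had levels of 304 in Mo17xB73 and 36.8 in Mo17 (3.05 ± 0.13). Both probe sets of the cellulose synthase gene CesA-4 were called higher (2.85 ± 0.23 and 2.30 ± 0.16). phb3, which encodes a prohibitin of mitochondria, had 318 in Mo17xB73 and 50.9 in Mo17 (2.65 ± 0.13), and stood at 0.860 ± 0.135 of B73. MRP2 had 337 and 34.5 (3.29 ± 0.17). saf1 was at the floor on all 3 Mo17 arrays and read 85.5, 71.7 and 84.6 in Mo17xB73, at least 5.31-fold higher. HRGP, a hydroxyproline-rich cell wall glycoprotein gene, was an opposite case: it was called higher (50.9 in Mo17xB73 and 15.3 in Mo17, where 2 arrays were at the floor; 1.73 ± 0.28, adjusted p 0.00101), but the hybrid stood at only 0.085 ± 0.033 of B73, while B73xMo17 read 590 and B73 597.

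**Figure D3:**
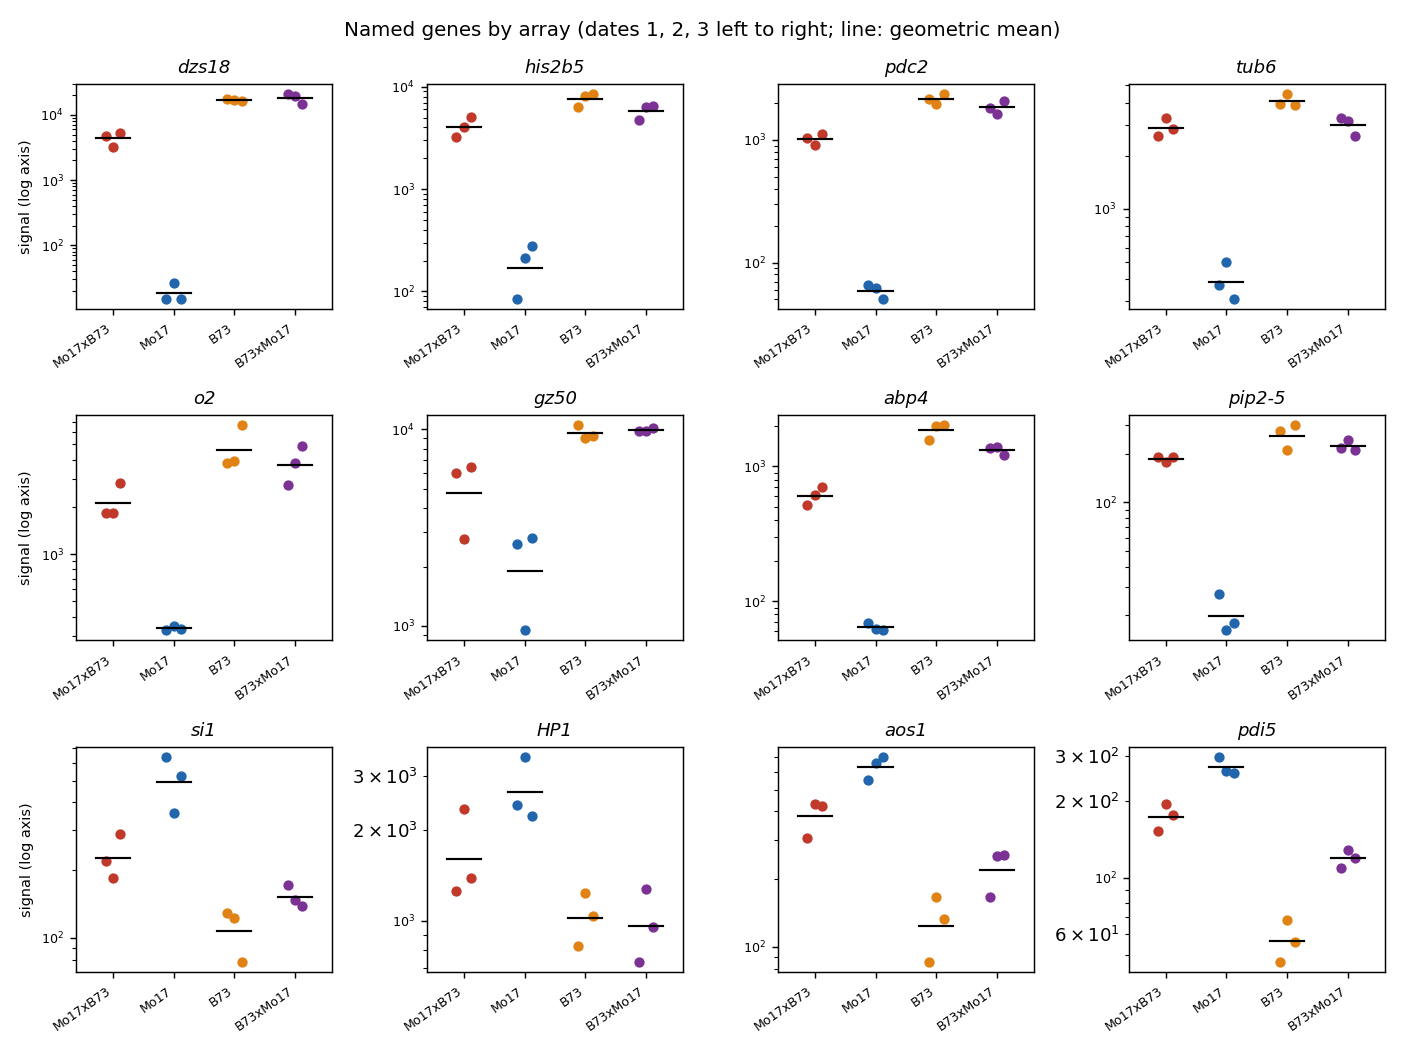
Signal of 12 named genes on each array (vertical log axes), for Mo17xB73, Mo17, B73 and B73xMo17, with points for dates 1, 2 and 3 from left to right and a line at the geometric mean. In the upper 8 panels Mo17 lies below the other genotypes, as for dzs18 (4351 in Mo17xB73 and 18.2 in Mo17), and in the lower 4 it lies above, as for si1 (227 in Mo17xB73 and 493 in Mo17).

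Among probe sets without a gene name, Zm.15876.1.A1_at read 3221, 2345 and 2845 in Mo17xB73, against 34.4, 39.3 and 23.4 in Mo17 (6.46 ± 0.16, adjusted p 1.33e-10), with 6884 in B73 and 5402 in B73xMo17. Zm.15394.1.S1_at was of another kind. It read 1319, 1638 and 2170 in Mo17xB73 and was at the floor on all 3 Mo17 arrays, at least 111-fold higher (adjusted p 7.03e-06). B73 arrays read 586, 622 and 173, and B73xMo17 arrays 196, 37.7 and 219. The hybrid arrays were above every B73 array. The ratio to B73 was 4.20 with an SD of 5.82 over dates, larger than the ratio, as the B73 array of date 3 was low, and the test against both inbreds did not pass (adjusted p 0.964).

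Starch synthesis genes turn imported sucrose into starch. Of 14 tested, 3 were called higher (21.4%) and none lower, against 11.4% higher and 7.54% lower over all tested probe sets, with 4 higher and 1 lower at an unadjusted p under 0.05 and a median of 0.088; with the common median over all probe sets the calls were 2 higher and 2 lower. sus2, a sucrose synthase gene, read 1153, 1277 and 928 in Mo17xB73, against 751, 732 and 610 in Mo17 (0.68 ± 0.08, adjusted p 9.65e-05). wx1, the granule-bound starch synthase that makes amylose, read 6785, 4674 and 6720 in Mo17xB73, against 4925, 3011 and 4284 in Mo17 (0.58 ± 0.12, adjusted p 0.00468), higher on each date although the ranges overlap. zpu1, a debranching enzyme of the pullulanase type, had 432 and 313 (0.47 ± 0.12, adjusted p 0.0224; 0.245 without the date block). The subunit genes of ADP-glucose pyrophosphorylase, sh2 and bt2, had differences of 0.08 ± 0.07 and 0.02 ± 0.07, and the sucrose synthase gene sh1 had 0.20 ± 0.09 (adjusted p 0.154).

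The basal transfer layer carries nutrients from the mother plant into the endosperm. Of 11 tested genes of this layer, 1 was called higher (9.09%) and none lower, against 11.4% higher and 7.54% lower over all tested probe sets, with 3 higher and none lower at an unadjusted p under 0.05. betl3 read 810, 232 and 684 in Mo17xB73, against 435, 134 and 433 in Mo17 (0.78 ± 0.17, adjusted p 0.00659). Date 2 was low in both genotypes, the arrays overlapped, and the call was absent without the date block (adjusted p 0.564). Other markers had values within their spread: meg2 9015 in Mo17xB73 and 7994 in Mo17, bap2 4373 and 3819, and the cell wall invertase gene mn1 660 and 512, against 70.0 for mn1 in B73. Neither gene of the embryo surrounding region was called (esr2 595 and 516, ESR1c1 175 and 142), and none passed an unadjusted p of 0.05.

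Of 23 histone and cell cycle genes, 3 were called higher (13%) and 1 lower (4.35%), against 11.4% higher and 7.54% lower over all tested probe sets. The first of the higher was his2b5, described above. Outside these counts, 1 of the 3 probe sets of MCM6, not its brightest, was also called higher (range of the 3, 0.05 to 0.53). pcna1, the replication clamp, read 2809, 3560 and 2927 in Mo17xB73, against 2126, 2399 and 2107 in Mo17 (0.48 ± 0.06, adjusted p 0.00011). It was at the level of the pollen parent in both crosses: B73 had 3376 and B73xMo17 2332. cycD2, a D-type cyclin gene, had 868 and 626 (0.47 ± 0.08, adjusted p 0.00109; 0.0539 without the date block). tub5, another beta tubulin, had the same pattern as pcna1, with 2815, 4240 and 3940 in Mo17xB73, against 1919, 2695 and 2549 in Mo17 (0.61 ± 0.06, adjusted p 9.89e-06; 0.06 without the date block). Its levels were 3708 in B73 and 2383 in B73xMo17, and Mo17xB73 stood at 0.973 ± 0.006 of B73. Over the 24 tubulin and actin genes, 2 were called higher (8.33%) and 1 lower (4.17%; tub4, -0.31 ± 0.09, adjusted p 0.0305; 0.0962 without the date block).

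The imprinted list held 4 genes, and none was called, with 1 lower at an unadjusted p under 0.05 (fie2). After quantile normalization, and with the common median over all probe sets, fie2 was called lower (adjusted p 0.0197 and 0.0155). fie1, a Polycomb gene used from maternal copies in maize endosperm, read 2983, 3424 and 3141 in Mo17xB73, against 3194, 3383 and 3457 in Mo17 (-0.07 ± 0.05, adjusted p 0.394). The arrays overlapped, and levels were 4704 in B73 and 4474 in B73xMo17, so both crosses lay near their mother. mez1, an Enhancer of zeste gene also used from maternal copies, read 1316, 1439 and 1219 in Mo17xB73, against 1295, 1434 and 1414 in Mo17 (-0.06 ± 0.07, adjusted p 0.566), with 2087 in B73 and 1982 in B73xMo17. fie2 had 168 and 219 (-0.38 ± 0.13, adjusted p 0.0585), and TUA1, an alpha tubulin, 7779 and 7278 (0.10 ± 0.05, adjusted p 0.263).

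**Figure D4:**
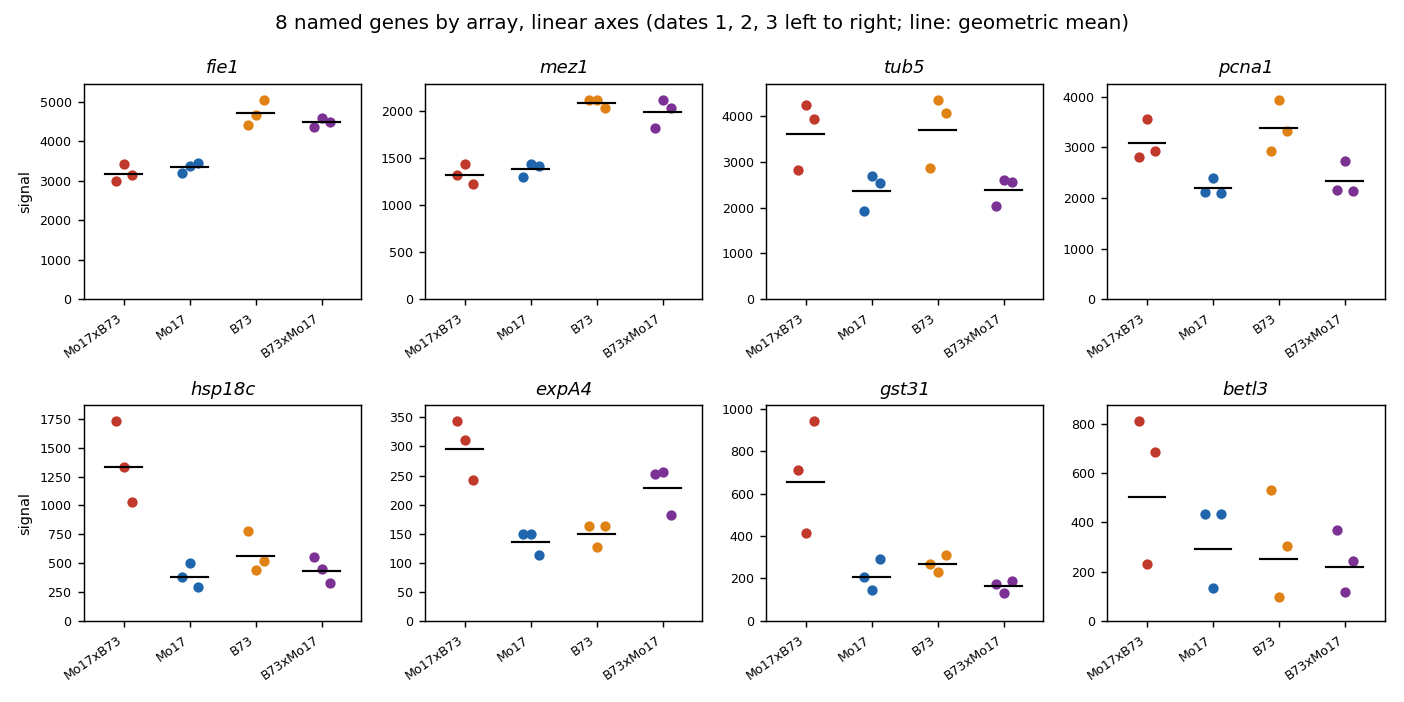
Signal of 8 named genes on each array (linear axes from 0), for Mo17xB73, Mo17, B73 and B73xMo17, with points for dates 1, 2 and 3 from left to right and a line at the geometric mean. fie1 and mez1 lie near the mother in both crosses, tub5 and pcna1 near the pollen parent, and betl3 falls on date 2 in every genotype. hsp18c and the probe sets drawn for expA4 (Zm.13728.1.S1_at) and gst31 (Zm.556.2.A1_x_at) are highest in Mo17xB73. The brightest probe set of expA4, not drawn, was called lower.

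Of 56 chromatin and Polycomb genes, 6 were called higher (10.7%) and 3 lower (5.36%), shares near the 11.4% and 7.54% over all tested probe sets, and none of these differences reached 0.60 in size. With the common median over all probe sets that split turned to 3 higher and 6 lower, and on the deposited scale to 1 higher and 2 lower. gcn5, a histone acetyltransferase gene, had 666 in Mo17xB73 and 450 in Mo17 (0.57 ± 0.07, adjusted p 7.26e-05), and ada2, its adaptor, had 457 and 370 (0.31 ± 0.08, adjusted p 0.0166; 0.0676 without the date block). SDG123, a SET domain gene, had 330 and 241 (0.45 ± 0.09, adjusted p 0.00467). mbd105, of the methyl-CpG-binding domain family, had 297 and 397 (-0.42 ± 0.09, adjusted p 0.00877). mez2, a relative of mez1, had 250 and 338 (-0.43 ± 0.12, adjusted p 0.0258; 0.0809 without the block).

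The named genes that fell most included water channels, hormone signalling genes and regulators of flower development. The aquaporins, channels for water in the plasma and vacuolar membranes, were mixed: of 12 tested, 3 were called higher (25%) and 4 lower (33.3%), against 11.4% higher and 7.54% lower over all tested probe sets, and on the deposited scale 1 higher and 4 lower. The lower were PIP2-4 (94.0, 179 and 106 in Mo17xB73, against 175, 348 and 250 in Mo17; -1.03 ± 0.23, adjusted p 0.00871), pip2b (-0.80 ± 0.13, adjusted p 0.0012), pip2c (-0.61 ± 0.15, adjusted p 0.0137) and tip3a (-0.54 ± 0.10, adjusted p 0.00285). The arrays of all 4 overlapped, and none was called without the date block (adjusted p 0.0881, 0.264, 0.372 and 0.341 in that order). The higher were pip2-5, PIP2-1 (0.26 ± 0.06, adjusted p 0.0116) and tip1 (0.39 ± 0.10, adjusted p 0.0146); the last 2 were not called without the block (0.115 and 0.218).

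HP1 and HP3, phosphotransfer genes of cytokinin signalling, were lower. HP1 read 1258, 2348 and 1381 in Mo17xB73, against 2419, 3479 and 2223 in Mo17 (-0.73 ± 0.10, adjusted p 0.000335; 0.102 without the date block), and HP3 had 845 and 1319 (-0.64 ± 0.12, adjusted p 0.00259; 0.271 without the block). Both were low in B73 (1021 and 460). Of 17 hormone genes, 3 were higher (abp4, aba1 and RR10; 17.6%) and 2 lower (11.8%), against 11.4% higher and 7.54% lower over all tested probe sets, and after quantile normalization 1 was higher and 2 lower. aba1, of abscisic acid synthesis, had 61.8 in Mo17xB73 and 30.0 in Mo17 (1.04 ± 0.32, adjusted p 0.0426), and RR10, a response regulator of cytokinin signalling, had 418 and 328 (0.35 ± 0.10, adjusted p 0.0323). Neither aba1 nor RR10 was called without the block (0.121 and 0.147). aos1, for allene oxide synthase of the jasmonate pathway, read 305, 433 and 425 in Mo17xB73, against 554, 657 and 700 in Mo17 (-0.73 ± 0.12, adjusted p 0.00126; 0.0771 without the block), with all hybrid arrays below. The next enzyme of that pathway, aoc1 (allene oxide cyclase), went the other way, with 1247 and 918 (0.44 ± 0.07, adjusted p 0.00131; 0.141 without the block). A dimmer probe set of aoc1, Zm.6423.1.S1_at, gave 1.23 ± 0.15 (adjusted p 0.000103; 0.00103 without the block).

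si1, a MADS-box gene of floral organ identity, read 218, 185 and 289 in Mo17xB73, against 637, 360 and 523 in Mo17 (-1.12 ± 0.22, adjusted p 0.00402), with all hybrid arrays below. ids1, an AP2-type gene of spikelet development, had 186 and 274 (-0.56 ± 0.10, adjusted p 0.00301). pdi5, a protein disulfide isomerase gene, read 153, 195 and 177 in Mo17xB73, against 299, 263 and 258 in Mo17 (-0.65 ± 0.15, adjusted p 0.0089). By the brightest probe set of each gene, it was the only call among 18 ER chaperone and folding genes (5.56%, against 18.9% over all tested probe sets). At an unadjusted p under 0.05 in limma, 1 was higher and 2 lower. Dimmer probe sets of CNX and crt2 were called lower, and 1 of der4 was called higher. hir2 had 117 and 173 (-0.57 ± 0.16, adjusted p 0.0324; 0.0877 without the block, and lost in each of 9 fits that left out arrays). CAF1 had 216 and 376 (-0.80 ± 0.20, adjusted p 0.0165), with 50.1 in B73 and 220 in B73xMo17. For si1, ids1, pdi5, hir2 and CAF1, and for aos1, the B73 level was below the Mo17 level.

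Of 16 cell wall genes, 3 were called higher and 3 lower (18.8% each), against 11.4% higher and 7.54% lower over all tested probe sets, and without the date block 2 and 1. cesa6, a cellulose synthase gene, had 2544 in Mo17xB73 and 3382 in Mo17 (-0.41 ± 0.09, adjusted p 0.0089), cesa8 had 721 and 914 (-0.34 ± 0.10, adjusted p 0.037), and CesA-9 had 176 and 117 (0.59 ± 0.17, adjusted p 0.0281). cesa8 and CesA-9 missed the threshold without the date block (0.0922 and 0.0662). The expansin gene expA4 was called in both directions by its probe sets: Zm.13728.1.S1_at at 1.12 ± 0.15, Zm.13728.2.S1_a_at at 0.46 ± 0.11, and the brightest, Zm.13728.2.S1_at, at -0.41 ± 0.11 (1035 in Mo17xB73 and 1375 in Mo17, adjusted p 0.0262). The last 2 were not called without the block (0.2 and 0.141).

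Above both inbreds stood 5 probe sets (0.0469% of those tested; 195 at an unadjusted p under 0.05), 3 of them with a gene name. hsp18c, a small heat shock protein gene, read 1729, 1336 and 1027 in Mo17xB73, against 380, 499 and 290 in Mo17 and 775, 438 and 523 in B73. Every hybrid array lay above every inbred array (1.81 ± 0.18 over Mo17 and 1.25 ± 0.18 over B73, adjusted p above both 0.0228). B73xMo17, the opposite cross, was at 434. The glutathione transferase probe set Zm.556.2.A1_x_at of gst31 read 710, 417 and 941 in Mo17xB73, against 206, 144 and 290 in Mo17 (adjusted p above both 0.00523), with 269 in B73. The other 3 probe sets of gst31 had differences from Mo17 of 0.31 to 0.38 and were not called. For expA4, Zm.13728.1.S1_at read 343, 311 and 243 in Mo17xB73, against 149, 149 and 114 in Mo17 (adjusted p above both 0.038), with 150 in B73. Zm.15004.1.S1_at read 228, 247 and 376 in Mo17xB73, against 25.7, 20.6 and 15.1 in Mo17, with 26.9 in B73 and 16.1 in B73xMo17 (adjusted p above both 0.00523). Zm.3198.2.A1_a_at had levels of 559 in Mo17xB73, 322 in Mo17 and 299 in B73 (adjusted p above both 0.00583). Without the date block 2 probe sets were called outside the parental range, and without any single array of the 6 between 0 and 4 (0 without Mo17xB73 replicate 3, 1 without Mo17xB73 replicate 2, 2 without Mo17 replicate 3, 3 without Mo17xB73 replicate 1 or Mo17 replicate 1).

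Heat shock genes as a list had 2 of 8 higher and 2 lower (25% each), against 11.4% higher and 7.54% lower over all tested probe sets. Without the date block there were 2 higher and none lower, and with the common median over all probe sets 2 higher and 3 lower. CPN60I, a chaperonin gene, was at -0.20 ± 0.05 (adjusted p 0.0129; 0.274 without the block). Beside hsp18c, hsp70-5 had 8035 in Mo17xB73 and 6441 in Mo17 (0.32 ± 0.08, adjusted p 0.0128), hsp22 had 5113 and 6859 (-0.42 ± 0.12, adjusted p 0.033; 0.344 without the block), and hsp101, a disaggregase, had 731 and 1093 (-0.58 ± 0.23, adjusted p 0.111). The other probe sets of hsp70-5 gave -0.02 ± 0.07 and -0.07 ± 0.06. Of 25 genes of the glutathione transferase and detoxification list, which also holds aoc1 and aos1, 4 were higher (16%) and 3 lower (12%), against 11.4% higher and 7.54% lower over all tested probe sets. This split turned with the processing, to 3 higher and 7 lower on the deposited scale, 4 and 6 with the common median over all probe sets, 3 and 0 without the date block, and 4 and 8 at an unadjusted p under 0.05. gst30 read 775, 692 and 849 in Mo17xB73, against 306, 288 and 256 in Mo17 (1.45 ± 0.25, adjusted p 0.00162), gst6 had 124 and 69.3 (0.84 ± 0.17, adjusted p 0.00493), and gst10 had 175 and 232 (-0.41 ± 0.13, adjusted p 0.043; 0.0716 without the block).

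The remaining lists had shares of calls near those over all probe sets or too few members to set beside them. Glycolysis and fermentation had 3 of 24 higher (pdc2, frk2 and phi1; 12.5%) and 2 lower (ALDH10A5 and pdh1; 8.33%), against 11.4% higher and 7.54% lower over all tested probe sets. Without the date block, on the deposited scale and with the common median over all probe sets it had 1 higher and 2 lower. phi1 was at 0.20 ± 0.05 (adjusted p 0.0133; 0.179 without the block), and frk2, a fructokinase gene, was at 0.23 ± 0.06 (adjusted p 0.0236; 0.224 without the block). Of 5 nitrogen and amino acid genes, 1 was called higher (20%) and none lower, against 11.4% and 7.54% over all tested probe sets. It was the glutamine synthetase gene gln5, at 85.7 in Mo17xB73 and 51.3 in Mo17 (0.74 ± 0.17, adjusted p 0.01, and 0.105 without the date block). Another member, 1 gene, was lower at an unadjusted p under 0.05. Ribosomal proteins and translation factors had 4 of 25 higher (16%) and none lower, against 11.4% higher and 7.54% lower over all tested probe sets, with a median of 0.041. Their direction turned with the scaling, to 1 higher and 2 lower (median -0.048) with the common median over all probe sets. Outside these counts, the dimmer of 2 probe sets of eif7, a member of this list, was called higher (2.33), and the other gave -0.04. Membrane transport had 1 of 9 higher (11.1%) and none lower, against 11.4% and 7.54% over all tested probe sets. At an unadjusted p under 0.05, 1 was lower. The call was ANT-G1 (0.28 ± 0.08, adjusted p 0.0334), which missed the threshold without the date block (0.0633).

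Markers of other seed tissues gave little: in the order below, 14.3%, 20% and 11.1% of the lists were called, against 18.9% over all tested probe sets. Of 7 aleurone and anthocyanin genes, dek1, a calpain needed for aleurone fate, was lower (766 in Mo17xB73 and 970 in Mo17; -0.34 ± 0.06, adjusted p 0.00224), and none was higher, also at an unadjusted p under 0.05. Of 5 embryo and late seed genes, glb3 was higher (6210 and 4379; 0.50 ± 0.07, adjusted p 0.000415), and none was lower, also at an unadjusted p under 0.05. Of 9 green tissue genes, fnr1, a ferredoxin reductase gene, was higher (268 and 198; 0.44 ± 0.09, adjusted p 0.00399), none was lower (1 at an unadjusted p under 0.05), and the light-harvesting gene lhcb6 had 127 and 119. Outside these counts, 2 of the 4 probe sets of pdk1 were called higher, its brightest not among them (range of the 4, 0.16 to 0.25). The gene is on the green tissue list and on the glycolysis and fermentation list. The part of other tissues in the results was not tested beyond these levels.

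**Figure D5:**
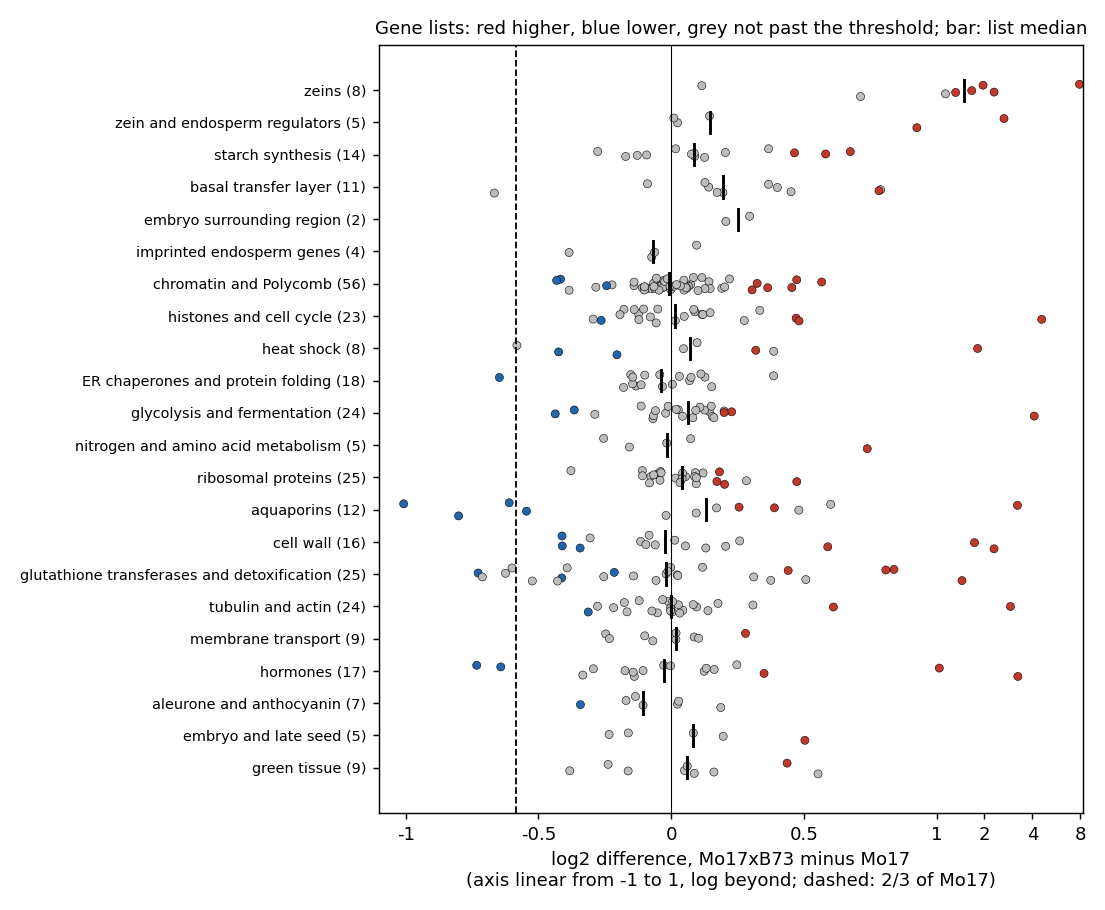
Log2 difference of Mo17xB73 minus Mo17 (horizontal axis, linear from -1 to 1 and logarithmic beyond) for the tested members of 22 gene lists, 1 point per gene, in red where called higher, blue where called lower and grey otherwise. Bars are list medians and the dashed line marks 0.667 of the Mo17 level. The zein list, with a median of 1.49, lies to the right of the other lists, whose medians run from -0.11 to 0.25.

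The reverse substitution asks the same of the B73 mother: B73 minus B73xMo17 also sets B73 pollen against Mo17 pollen, with means from other arrays. It called 2161 probe sets (20.3%), with 1064 higher (9.97%) and 1097 lower (10.3%) in B73. Higher in both were 453, which is 37.3% of the 1216 and 42.6% of the 1064, and lower in both were 385, which is 47.9% of the 804 and 35.1% of the 1097. Of the 1216, 12 were called lower in B73 than in B73xMo17, and of the 804, 21 were called higher. The arrays shared crossing dates, and in the fit they shared the block and the estimate of the spread, so the lists are not independent.

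The size of the pollen effect differed between the mothers for 984 probe sets (9.22%), 739 with a larger value on the Mo17 mother (6.93%) and 245 with a smaller one (2.3%). The log scale sets unequal values side by side: where B73 copies alone give the signal, 1 copy against none is set beside 3 copies against 2, which is a difference of 0.585. For dzs18, the B73 mother had 16987 with B73 pollen and 18153 with Mo17 pollen (-0.10 ± 0.22), while the Mo17 mother gave 7.90. For o2 the value on the B73 mother was 0.32 ± 0.14 and for pdc2 0.24 ± 0.11. sus2, tub5 and pcna1 had values that the contrast did not separate: 0.68 on the Mo17 mother and 0.48 on the B73 mother for sus2, 0.61 and 0.64 for tub5, and 0.48 and 0.53 for pcna1, each called in both. The differences of differences were 0.19 ± 0.11, -0.03 ± 0.08 and -0.05 ± 0.08 for these 3 genes. expA4 (Zm.13728.1.S1_at) had opposite signs, with 1.12 ± 0.15 on the Mo17 mother and -0.60 ± 0.15 on the B73 mother. The contrast also rested on B73xMo17 replicates 1 and 2, which were dim as deposited, and it gave 493 calls without them.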

How the data were processed

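The authors deposited MAS5 signal, a linear intensity with 1 value per probe set and array; MAS5 is named per the submitters' processing notes, and the sources used here give neither version nor scaling target. Of 17734 probe sets, 113 Affymetrix controls and 66 reporter probe sets were left out. Each array was multiplied by 0.886 to 1.294 so that medians of the probe sets above the filter were equal. Signal was floored at the pooled 20th percentile, filtered at the 40th on the mean of 12 arrays and taken to log2. The model in limma 3.58.1 (R 4.3.3) held 4 genotype means and crossing date as a block (6 residual degrees of freedom), with an intensity trend; tests were two-sided unless stated. It was tested on simulated data. The labels tie replicate numbers to crossing dates. Deviations of Mo17xB73 and Mo17 from their group means correlated 0.5, 0.595 and 0.532 within dates, and -0.398 to -0.075 across dates. Deviations of a genotype cancel over its 3 dates, so positive values within dates draw those across dates below zero. Nothing says that ears of a pool were kept apart, so each array is 1 replicate, and array number limits precision. An SD beside a ratio of a named gene to a parent is over the 3 dates.

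Of 1452 probe sets with 1 gene in the array annotation, 1377 matched a current RefSeq gene and 1271 had a usable name; placeholders were named by RefSeq synonyms, as the tables held no product descriptions, and some pattern matches were taken out of the gene lists by hand for that reason. A gene in a list is its brightest probe set. Named genes are the 12 higher and 12 lower with the largest difference and the same sign on each date, up to 3 called per list, all imprinted-list genes, and those standing out in the other tests; further list members were named after their values were seen. The genotypes, gene lists and rules were chosen with earlier results of these data known. Alternatives covered block, scaling, floor, filter, trend, fitted samples and left-out arrays. Sequences and genome positions were not used here.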

Additional observations from a re-analysis of the deposited data

Results flagged for a closer look

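Results were taken up here where the pollen effect on the Mo17 mother (Mo17xB73 minus Mo17) and on the B73 mother (B73 minus B73xMo17) differed by the test of the difference itself, the limma contrast at an adjusted p under 0.05. Groups of 3 arrays were not tested for stray arrays. The contrast called 984 probe sets, 9.22% of those tested (6.93% with a value above zero and 2.3% below). Among the named genes and probe sets it called 33, 28 with a value above zero and 5 below. Many of these were named for a large difference from Mo17 and some by this contrast itself, which largely fixes those counts. Values are log2, Mo17 mother minus B73 mother.

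Values above 4 were found for dzs18 (8.0), Zm.15876.1.A1_at (6.11), Zm.15394.1.S1_at (5.03) and his2b5 (4.18). Between 2 and 4 lay pdc2 (3.87), pip2-5 (3.01), abp4 (2.75), MRP2 (2.68), HMT-2 (2.50), tub6 (2.46), saf1 (2.41), o2 (2.33) and CesA-4 (2.27, with 1.76 for its second probe set). Smaller values above zero were those of phb3 (1.97), expA4 (1.72), HRGP (1.71), hsp18c (1.44), gz50 (1.38), gst31 (0.95), zpu1 (0.75), wx1 (0.72), ohp1 (0.53), glb3 (0.53), gcn5 (0.46) and hsp70-5 (0.40). CAF1 (1.33) and pip2c (1.02) also had values above zero, since both fell on both mothers and by more on the B73 mother (-2.13 and -1.63). Below zero were HP1 (-0.82), HP3 (-0.73), tip3a (-0.57), cesa6 (-0.50) and CPN60I (-0.35): HP1 differed by -0.73 ± 0.10 on the Mo17 mother and by 0.09 ± 0.10, which was not called, on the B73 mother.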

How the results depend on the processing

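Without the date block (no replicate block), calls were 1179 in all, 338 lower, 2 outside the parental range and 539 between mothers. On the deposited scale, calls were 1254 in all and 693 higher, and the median difference of all probe sets was -0.118. Without a filter 0 lay outside the range, and with the filter at the 60th percentile 773 were higher, 198 differed at least 2-fold, 3 lay outside the range and 653 differed between mothers. The 6 arrays alone gave 1233 lower, and leaving out B73xMo17 replicates 1 and 2 gave 493 between mothers. Chosen after seeing the data, the common median over all probe sets gave 1511 lower and 11 outside the range (5 above, 6 below). Fits that left out a date or an array gave 947 to 1729 calls, 739 to 1099 higher, 208 to 630 lower, 389 to 459 at least 2-fold, 0 to 4 outside the range and 577 to 980 between mothers, and none below 0.667 of Mo17. Of the calls, 71.3% were higher without the block and 78% without replicate 3, against 60.2%.

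The ratio to B73 for probe sets at the floor in Mo17 was 0.293 after quantile normalization, 0.302 with the median over all probe sets, and 0.311 to 0.316 with a date left out. The ratio to Mo17 for those at the floor in B73 was 0.606 on the deposited scale, 0.632 after quantile normalization, 0.629 with the median over all probe sets, 0.654 with a limit of 500, and 0.675 to 0.684 with a date left out. Of 62 named probe sets called, 28 were called in every fit that tested them (the filter at the 60th percentile tested 44), 22 were lost in at least 1 fit that left out arrays and none changed direction. Of the 9 such fits, hir2 and rps13 were lost in 9, rpl30 and zpu1 in 7, and ANT-G1, CPN60I, hsp70-5 and tub4 in 6. The causes were not tested. The promoter motif search was not run.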
